A study of Mus musculus with 6 samples.

Results

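pi-D730040F13Rik is 1 of the 214 piRNA genes, transcribed regions listed as sources of PIWI-interacting RNAs (piRNAs), that held reads in small RNA libraries of mouse fetal germ cells. It was selected on 2 values measured in these same libraries, its share of the reads, the highest of all piRNA genes, and its share of reads resembling 4.5SH RNA. Its share of the reads is therefore given as a description without a test. The share resembling 4.5SH RNA is not given, as the sequence of that RNA was missing. Matches to a sequence built from the cluster's own reads are given in its place. Its members were the reads whose listed places all lay on transcripts of this 1 piRNA gene, counted with their copies once per library. Reads also placed on other piRNA genes, 133 to 233 per library, were left out. They came to 16484 reads of 2376 distinct sequences, which was 27.8% of the reads in the 6 libraries, out of 27231 distinct sequences in all. The libraries were made from primordial germ cells, the precursors of sperm and eggs, purified from male embryos of stage E13.5. In 3 libraries the cells had received ionizing radiation (IR), and the 3 control libraries came from untreated cells. The sources used here do not give the strain, the radiation dose or the time from radiation to collection. Nor do they tell whether each replicate is its own litter or animal; every p-value here therefore reflects library-to-library spread alone, possibly of technical origin. These are bulk libraries, in which fewer cells of a type and less RNA per cell cannot be told apart.

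piRNAs are small RNAs bound by PIWI proteins, which silence transposons in the germ line. They are cut from long single-stranded precursors, and many begin with U. 4.5SH RNA is a short, abundant RNA of some rodents, transcribed by RNA polymerase III, related to the B1 family of repeats and ending in a run of U. D730040F13Rik is an earlier name of Tmem245, which encodes a transmembrane protein.

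Of the 16484 reads, 16334 (99.1%) lay in sense within 1 window of 89 nt, positions 12145 to 12233 of the cluster transcript. Reads identical to the Tmem245 mRNA placed this window on the minus strand at mm10 chr4:56870726-56870814. It lies in exon 18 of 18, in the 3' untranslated region (UTR) of transcript Tmem245-201 (13327 nt of a 15981 nt mRNA), and the gene spans chr4:56866923-56947437. Bases of the window are numbered here from 1 at its 5' end. The sequence most often read at each base, called the read consensus, is shown because the results turn on how it differs from the mRNA it was placed on. Capitals mark the 6 bases where it differs from the mRNA and 1 further base, base 68, at which a second form of the reads differs from the consensus. T stands for U.

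Read consensus: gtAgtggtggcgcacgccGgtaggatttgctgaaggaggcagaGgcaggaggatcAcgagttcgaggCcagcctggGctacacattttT
Leading sequence, 28 nt: tcgaggCcagcctggGctacacattttT
mRNA under it, chr4:56870726-56870753, minus strand: tcgaggCcagcctggTctacacattttA
Leading sequence of the second form, 27 nt: tcgaggAcagcctggTctacacatttt
Leading sequence with 5' end at base 23, 39 nt: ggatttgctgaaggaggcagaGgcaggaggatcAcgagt

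The consensus and the mRNA were identical at 83 of the 89 bases (93.3%). Their differences, written as mRNA base, window base and consensus base, were T3A, A19G, A44G, G56A, T77G and A89T. Within the leading sequence, counted from its own first base, they were T16G and A28T. The sequence of 4.5SH RNA was not in the reference tables used here, so the name 4.5SH in the label of this cluster was not tested against that RNA. What follows describes reads by their match to the read consensus.

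The consensus base is by definition the one most often read at each base. The share of reads with the mRNA base at the 6 differing bases is therefore given as a description. The mRNA base was carried by 3.65% of the 192 reads over base 3, 1.19% of 1260 over base 19, 0.421% of 4039 over base 44 and 1.08% of 7673 over base 56. At base 77 it was carried by 14.8% of 10127 reads and at base 89 by 10.02% of 1517. The consensus base held 79.2% or more of the reads at every one of the 6 bases when the libraries were summed. Only 20 reads spanned a differing base and were identical to the mRNA throughout, and 10 of these also fitted the second form.

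**Figure D1:**
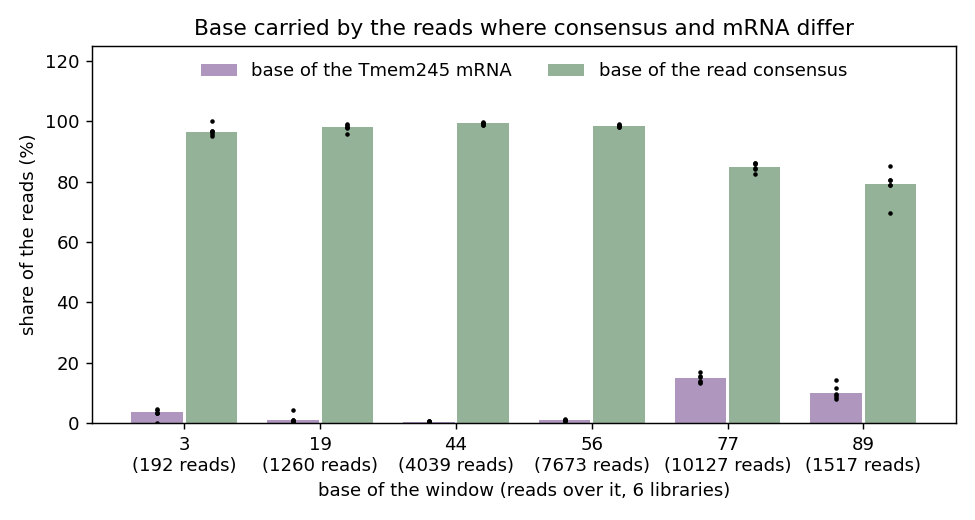
Share of reads (y axis, %) that carried the base of the Tmem245 mRNA or of the read consensus at the 6 window bases where they differ (x axis, with the number of reads over each base). Bars are all 6 libraries summed and points are single libraries. In the summed bars the mRNA base reaches 14.8% at base 77 and 10.02% at base 89 and stays under 4% at the other 4 bases.

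An exact match to the consensus was found for 12832 reads, made up of 12381 that spanned a base telling it from the mRNA (75.1% of the cluster) and 451 that spanned none (2.74%). A second form, the consensus with C68A and G77T, was matched exactly by 1058 reads (6.42%) that matched neither the consensus nor the mRNA. G77T is the mRNA's own base. Reads over only 1 of these bases could enter, and reads with any further difference were not counted. Base 68 of the mRNA is C, so the second form matched neither the consensus nor the mRNA over both bases. A further 2424 reads (14.7%) lay in the window and matched none of these sequences exactly, among them any second-form reads with a further difference. Of the 2424, 1760 (72.6%) were within 1 mismatch of the consensus. At each position, the most frequent base other than the consensus base was ranked by its share of the reads over that position. The 6 highest were G77T at 14.8%, C68A at 14.2%, T89A at 10.02%, C15G at 6.38%, A3T at 3.65% and T88C at 2.92%. Less frequent bases at a position, such as those of base 89 reads with neither T nor A, were not ranked. Of the 13529 reads in the files that matched the consensus, 12832 (94.8%) lay in this cluster alone, 86 (0.636%) lay in 2 other piRNA genes and 611 (4.52%) had places in more than 1 piRNA gene. The consensus was built from reads of this cluster alone, which favors matches here. These shares are therefore a description and were not tested.

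The number of differences from the mRNA was bounded. In the window, 471 reads (2.88%) had 0 mismatches to the mRNA, 5214 (31.9%) had 1 and 10649 (65.2%) had 2, and 0 reads had more. A read of the consensus over 3 of the differing bases would carry 3 mismatches, and 0 of the 12832 consensus reads spanned 3, although 8268 spanned 2. Consensus reads with 5' ends at bases 4 to 19 reached base 55 at the latest and those from bases 20 to 44 reached base 76. Those from bases 45 to 56 reached base 88, in each case just short of a further differing base. The sources used here do not state how many mismatches the alignment allowed, and the part of such a limit in the positions and lengths of the reads was not tested.

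The depth of the cluster was 2664, 2285 and 3170 reads in control replicates 1 to 3, which was 26.5%, 28.4% and 29.3% of the reads in each file. It was 3195, 3059 and 2111 reads in IR replicates 1 to 3, or 28.3%, 27.1% and 27.1%. The exact binomial 95% intervals of these shares were between 25.6% and 30.2%, covering counting error only, and the groups overlapped. The next most abundant piRNA genes, 14-qA3-2286, 14-qA3-19970 and 7-qF3-3125, held 4.19%, 4.01% and 2.11% of all reads. None of these reads matched the consensus, which was built from the reads of pi-D730040F13Rik. In a library, 3 reads made up between 0.0939% and 0.142% of the cluster. IR replicate 3 stood apart from the other 5 libraries in where its reads began, as described with the 5' ends. As each file holds only reads on piRNA clusters, the labelled cell type could not be checked by expression: 0 of 10 germ cell and 0 of 10 somatic marker genes were the name of a piRNA gene with reads.

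The reads in these files were a family of overlapping sequences rather than 1 sequence of fixed ends. RNA between 18 and 50 nt entered the libraries, so an RNA spanning the 89 nt window lay outside the range that could be seen whole. The leading sequence, TCGAGGCCAGCCTGGGCTACACATTTTT, had 75, 97 and 74 reads in the control libraries and 59, 79 and 25 in the IR libraries. Its forms lacking 1 or 2 bases at the 3' end had 389 and 351 reads in all, against 409 for the full form. The 12 most abundant sequences together held 2853 reads (17.3%). At the other extreme, 1334 sequences (56.1% of the distinct ones) were read once, and the 295 sequences with 10 or more reads held 76.3% of the reads.

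3' ends gathered at the last bases of the window, where the consensus ends in a run of U. Base 88 was the 3' end of 3247 reads (19.7%), base 87 of 2392 (14.5%), base 89 of 1446 (8.77%) and base 86 of 664 (4.03%). Among consensus reads with U at the 3' end, 1776 ended in 3 U, 2337 in 4 and 913 in 5. All 913 began at bases 57 to 77. The 5390 consensus reads from bases 45 to 56 ended at base 88 at the latest, short of the differing base 89. The part of a limit on mismatches in these counts of U was not tested. Smaller groups ended at base 78 (703 reads), base 55 (631 reads) and base 61 (548 reads). Base 61 lies just before the most used 5' end, base 62, at which 1912 reads began, and base 55 just before base 56, at which 589 began.

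5' ends gathered around bases 23, 48 and 62 of the window. Base 62 was the 5' end of 359, 385 and 376 reads in the control libraries and of 289, 363 and 140 in the IR libraries, together 11.6% of the cluster. These reads averaged 26.9 nt, and 65.1% matched the consensus. Bases 22 and 23 were the 5' ends of 1069 and 1792 reads, with a mean length of 31.9 and 34.4 nt. The 39 nt sequence from base 23 printed above had 44, 47 and 55 reads in control and 42, 64 and 11 in IR libraries. Around base 48 reads were longer, with 1026 reads at base 48 itself averaging 35.8 nt. Its leading sequence is printed to show that such reads run on to the terminal U run.

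Leading sequence with 5' end at base 48, 41 nt: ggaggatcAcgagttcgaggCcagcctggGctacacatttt

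IR replicate 3 had the lowest share of the 6 libraries at base 62, with 6.63% of its cluster reads against 9.05% to 16.8% in the others. At base 23 it had 5.92% against 10.5% to 14.0%. At base 48 it had the most reads of any library, 220, although its cluster total was the lowest.

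**Figure D2:**
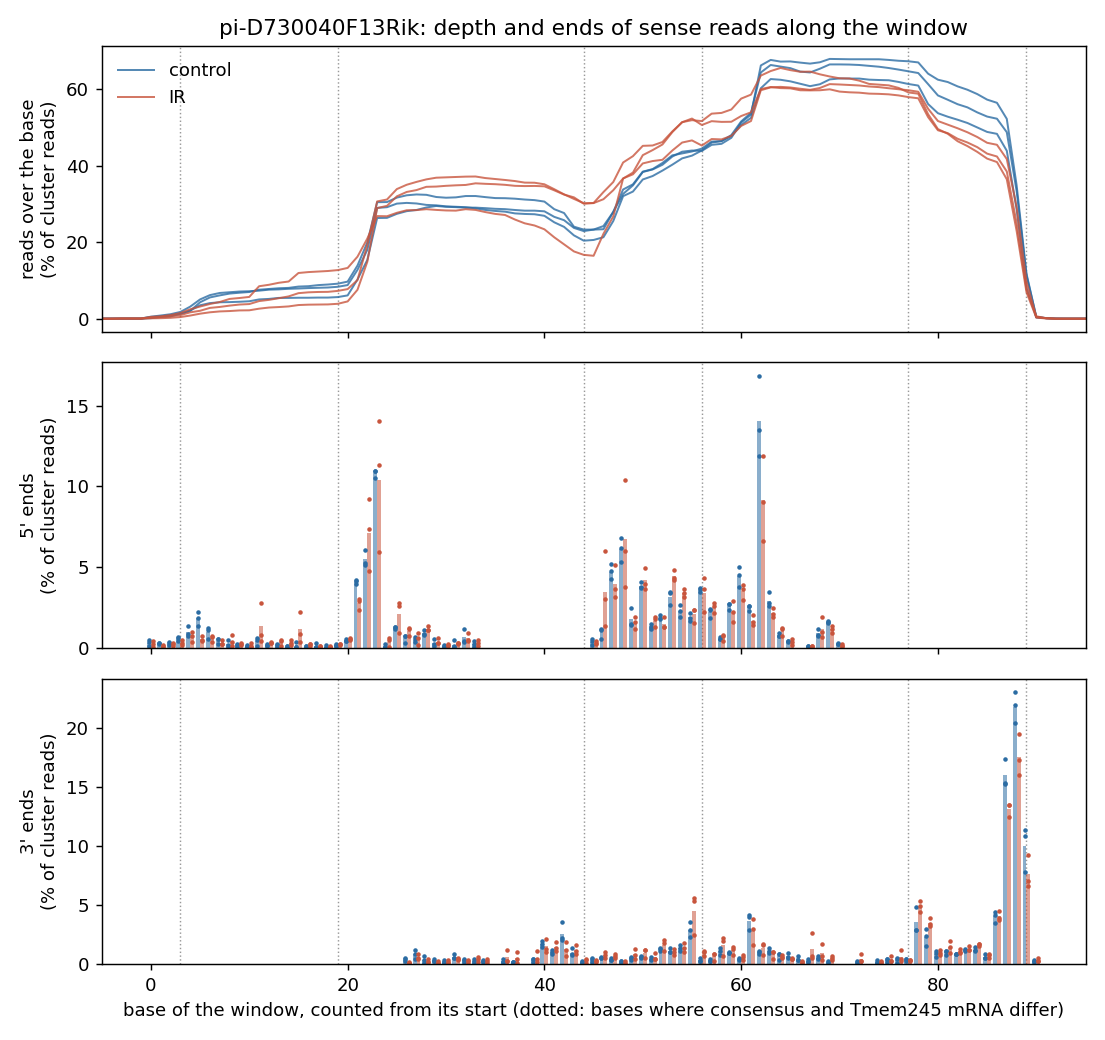
Depth (top), 5' ends (middle) and 3' ends (bottom) of sense reads as % of the cluster reads of a library (y axes) against the base of the 89 nt window (x axis). Lines and points are single libraries, bars are group means, and dotted lines mark the 6 bases where consensus and mRNA differ; 5' ends peak at bases 23, 48 and 62 and 3' ends at bases 87 and 88.

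Reads of the cluster were longer than those of the other piRNA genes and nearly all in 1 orientation. Antisense reads made up 0.338% ± 0.0399 (SD, n = 6 libraries) of the cluster and 44.97% ± 3.11 of the other piRNA genes. Reads nearly all of 1 orientation were not particular to this cluster. Summed over the libraries, 94.3% were antisense in 14-qA3-2286, 95.5% in 14-qA3-19970 and 79.3% in 7-qF3-3125. These and the following values are a description with no test. The cluster was chosen for its reads in these same libraries, and their strand, bases and lengths can come with that choice. Mean length was 30.9 nt ± 0.429 against 26.0 nt ± 0.424, higher in 6 of 6 libraries. The share of 24 to 32 nt, taken here as piRNA size, was 50.3% ± 1.90 against 28.5% ± 3.70, also higher in 6 of 6 libraries. The share of reads of this size was 5.12% in 14-qA3-2286, 42.0% in 7-qF3-3125 and, above the cluster, 56.2% in 14-qA3-19970. A at position 10, a feature of piRNAs made by the ping-pong cycle, was carried by 19.3% ± 1.65 of such reads against 24.4% ± 1.52, lower in 6 of 6 libraries. First U among reads of 24 to 32 nt was 35.8% ± 6.94 against 31.0% ± 6.77, higher in 4 of 6 libraries.

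Length differed between the forms of the cluster's own reads. Consensus reads averaged 31.99 nt ± 0.310 in control and 31.7 nt ± 0.604 in IR libraries, and the remaining reads 28.0 nt ± 0.136 and 27.6 nt ± 0.361 (SD, n = 3 each). Of the consensus reads 43.9% ± 0.228 in control libraries had piRNA size, and of the remaining reads 73.2% ± 3.16. The 2 classes did not overlap in either measure in any library. This contrast was not tested, since the length of a read bears on whether it matches. No window read had more than 2 mismatches to the mRNA, which can also limit the length of reads in each class. The part of that bound was not tested.

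**Figure D3:**
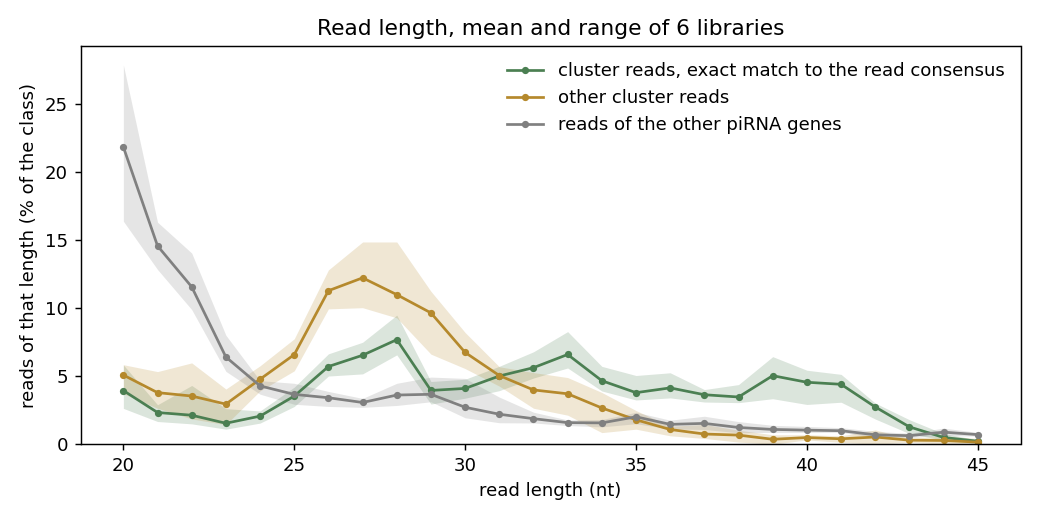
Share of reads (y axis, % of the class) at each length from 20 to 45 nt (x axis) for cluster reads that match the read consensus exactly, for the other cluster reads and for reads of the other piRNA genes. Lines are means and shading the range of the 6 libraries; consensus reads spread over lengths past 40 nt, the other cluster reads gather near 27 nt and reads of other piRNA genes near 20 nt.

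First U in the cluster rested largely on 1 position. Of the 2978 cluster reads of 24 to 32 nt with first U, 1885 (63.3%) began at base 62, and these were 26.8% of the 7033 reads of that size with first U in the files. Without the reads from base 62, 17.1% of the remaining 6385 cluster reads of 24 to 32 nt began with U. Over all lengths, 33.6% of cluster reads began with G, 28.6% with A, 24.5% with U and 13.3% with C.

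The level of the whole cluster did not differ detectably between IR and control. Its CPM, counts per library after edgeR's scaling to a common total, were 352695, 415624 and 412812 in control libraries and 374414, 353770 and 362449 in IR libraries, and the groups overlapped. The log2 fold change, IR over control here and throughout, was -0.11 (SE 0.13; adjusted p = 0.653 by edgeR's quasi-likelihood test with Benjamini-Hochberg adjustment). Across all 103 piRNA genes tested, 7.77% passed the threshold of adjusted p under 0.05. Because each file holds only reads on piRNA clusters, this compares the cluster with other piRNA genes and not with all RNA of the cells.

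Neither class of cluster reads passed the threshold. Consensus reads stood at 298950 ± 33626 CPM in control and 290379 ± 11098 in IR libraries (SD, n = 3), a log2 fold change of -0.04 (SE 0.12; edgeR adjusted p = 0.838). Without control replicate 1 the change was -0.24 and passed the threshold (edgeR adjusted p = 0.0203). The remaining reads had 86881, 85591 and 93188 CPM in control and 82360, 74589 and 80266 in IR libraries, which did not overlap, yet the log2 fold change of -0.16 (SE 0.14) was not past the threshold (edgeR adjusted p = 0.533). In that fit 7.62% of 105 features passed.

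Of single sequences, none of the cluster was called. Of the 67 cluster sequences with enough reads to test, 0 passed in edgeR's quasi-likelihood test and 0 in DESeq2, against 8.06% of all 124 sequences tested in edgeR, 4.84% higher and 3.23% lower. At an unadjusted p under 0.05 edgeR gave 6 higher and 2 lower in IR, 8 of 67, where 21.8% of all 124 reached that level. Their median log2 fold change was 0.0076, against 0.010 over all 124. With sequences of the same first 20 nt summed, 4 of 46 tested in the cluster were called, 3 higher and 1 lower, where 18.3% of all 104 were. These 4, chosen after their values were seen, began at bases 5, 15, 46 and 54, the same positions as the called 5' ends described further on, and hold largely the same reads. The leading sequence had a log2 fold change of -0.55 (SE 0.39; edgeR adjusted p = 0.469) and the 39 nt sequence from base 23 one of -0.28 (SE 0.41; edgeR adjusted p = 0.741). The second form's leading sequence had 22, 18 and 21 reads in control and 19, 23 and 15 in IR libraries, with a log2 fold change of 0.03 (SE 0.31; edgeR adjusted p = 0.998).

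The 20 nt sequence from base 23, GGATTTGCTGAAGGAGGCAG, which spans no differing base and is identical to the mRNA, depended on which libraries entered. It had 27, 23 and 62 reads in control and 13, 4 and 20 in IR libraries, a log2 fold change of -1.33 (SE 0.56; edgeR adjusted p = 0.169). The log2 fold change was -1.52 without control replicate 1 (edgeR adjusted p = 0.0266) and -2.18 without IR replicate 3 (edgeR adjusted p = 0.0369), both past the threshold. It was -0.80 without IR replicate 2 (edgeR adjusted p = 0.367) and -0.92 without control replicate 3 (edgeR adjusted p = 0.419).

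Counting reads by their 5' end gave 4 called ends among the 40 tested in the cluster, which is 10%, when 18.8% of all 85 ends tested were called. Of these 4, 3 were higher in IR, where 11.8% of all ends were, and 1 was lower, where 7.06% of all ends were. The cluster's share of called ends was thus not above the background. At an unadjusted p under 0.05 the count was 7 of 40, where 25.9% of all 85 ends reached that level. The median log2 fold change was 0.036 over the cluster's ends and -0.045 over all 85. The CPM of an end is relative to the reads of these 85 ends, 40 of them the cluster's own. The leading sequences from the called ends are shown because they place the ends on the window.

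5' end at base 5, 27 nt: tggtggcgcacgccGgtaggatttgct
5' end at base 15, 26 nt: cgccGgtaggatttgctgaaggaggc
5' end at base 46, 43 nt: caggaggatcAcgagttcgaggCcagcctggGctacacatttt
5' end at base 54, 35 nt: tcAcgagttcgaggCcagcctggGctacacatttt

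Base 5, near the start of the window, was the 5' end of 50, 31 and 71 reads in control and of 13, 15 and 15 in IR libraries, spread over 72 sequences. Every control library was above every IR library, also as CPM. The end fell by 1.70 on the log2 scale (SE 0.41; edgeR adjusted p = 0.00482), and the adjusted p was between 0.000434 and 0.0494 over the alternatives tried. Without IR replicate 3 the change was -2.04.

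Base 46, just upstream of the ends around base 48, was the 5' end of 32, 26 and 17 reads in control and of 97, 41 and 127 in IR libraries. The groups did not overlap, and IR replicate 3 was the highest although its cluster total was the lowest. The end rose by 1.96 on the log2 scale (SE 0.41; edgeR adjusted p = 0.00241), with 0.0494 as the highest adjusted p of the alternatives. Without IR replicate 3 the rise was 1.21 (edgeR adjusted p = 0.0160). Its 340 reads were of 40 sequences, 91.5% of them matching the consensus.

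Base 15 was the 5' end of 2, 1 and 11 reads in control and of 27, 11 and 47 in IR libraries, a thin count in which control replicate 3 and IR replicate 2 had equal reads. As CPM the groups did not overlap, at 441, 252 and 2199 against 5191, 2369 and 14621. The rise was 2.80 on the log2 scale (SE 0.76; edgeR adjusted p = 0.00978), and without control replicate 3 it was 4.23. The call was lost without control replicate 1 (2.43, edgeR adjusted p = 0.127), without IR replicate 1 (3.03, edgeR adjusted p = 0.0834) and without IR replicate 3 (1.80, edgeR adjusted p = 0.112). It was also lost when all reads were counted, divided by their mapped places (edgeR adjusted p = 0.0532).

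Base 54 was the 5' end of 71, 52 and 60 reads in control and of 117, 97 and 72 in IR libraries, which did not overlap. The rise of 0.69 on the log2 scale (SE 0.24; edgeR adjusted p = 0.0493) lay just past the threshold. It was lost in every alternative tried but 1, the count of all reads divided by their mapped places, with edgeR or DESeq2 adjusted p between 0.0360 and 0.434.

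The 8 most used ends were not called. Base 62 had a log2 fold change of -0.50 (SE 0.37; edgeR adjusted p = 0.404), and at 79200, 96830 and 75161 CPM in control against 55564, 78176 and 43551 in IR libraries the groups overlapped. Base 23 stood at 0.05 (SE 0.37), base 22 at 0.47 (SE 0.29) and base 48 at 0.24 (SE 0.33). Base 48 turned to -0.34 without IR replicate 3, the library with the most reads there. Base 47 stood at -0.16, base 50 at 0.23 and base 60 at -0.23. Base 53 stood at 0.59 (SE 0.24; edgeR adjusted p = 0.104), with 71, 79 and 107 reads in control and 154, 129 and 92 in IR libraries, whose CPM did not overlap.

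**Figure D4:**
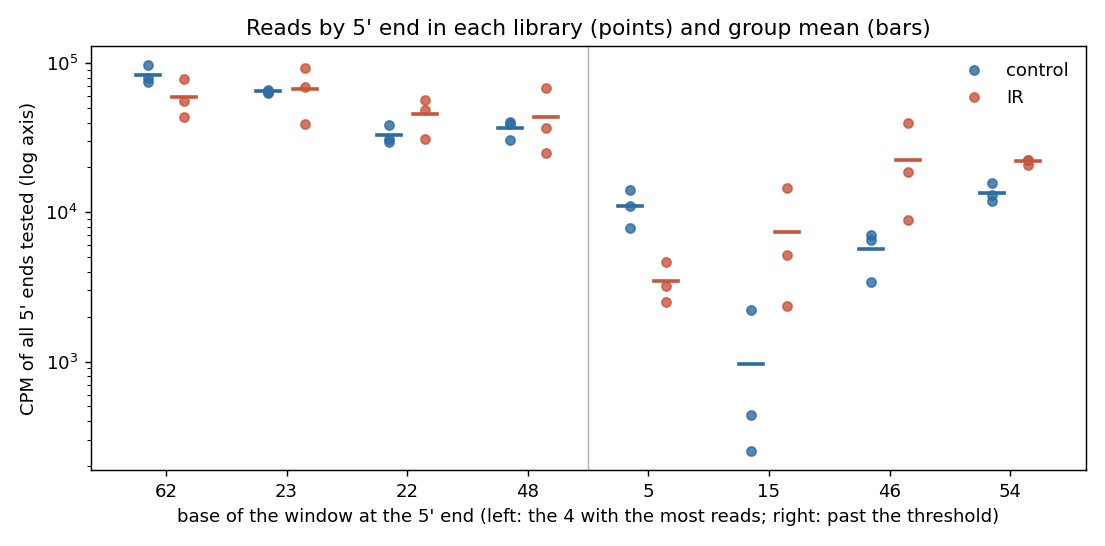
CPM (y axis, log scale) of reads by 5' end in each library (points) and group mean (bars) for the 4 most used ends of the window (left) and the 4 called ends (right), named by window base (x axis). The groups overlap at bases 62, 23, 22 and 48 and are apart at bases 5, 15, 46 and 54.

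Reads beginning with U were a smaller part of the cluster in all 3 IR libraries than in any control library. They made up 26.7%, 29.98% and 26.3% of cluster reads in control and 21.1%, 24.2% and 18.6% in IR libraries, means of 27.6% ± 2.03 and 21.3% ± 2.83 (SD, n = 3). The exact two-sided permutation p was 0.1, the smallest that 3 against 3 allows, and adjusted over the 19 composition measures it was 0.38. Among reads of 24 to 32 nt the shares were 40.2%, 45.3% and 37.1% against 32.4%, 34.4% and 25.0%, also without overlap and with the same exact p. The groups were apart within consensus reads (25.0% ± 2.34 against 19.4% ± 2.48) and within the remaining reads (36.6% ± 1.87 against 28.5% ± 4.86). With each distinct sequence counted once, the difference at 24 to 32 nt went from -10.2 to -5.38 percentage points and that within consensus reads from -5.61 to -0.73, while that in the remaining reads went from -8.18 to -9.29. With up to 1 mismatch allowed in a match, it was -7.07 in matching reads and -0.12 in the remaining reads. The design cannot place any of these differences past 0.05.

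Reads beginning at base 62 begin with U in the consensus. In control libraries their share was 13.48%, 16.8% and 11.9%, against 9.05%, 11.9% and 6.63% in IR libraries, and the groups overlapped (exact permutation p = 0.2). Its part in the first-U difference was not tested. The share of consensus reads was 77.04% ± 1.95 in control and 78.6% ± 0.755 in IR libraries (exact permutation p = 0.3). The second form made up 15.4% ± 1.93 and 14.0% ± 0.720 of the reads over both its bases (exact permutation p = 0.3). Reads of piRNA size were 50.6% ± 0.324 and 50.0% ± 2.93 of the cluster (exact permutation p = 0.9).

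**Figure D5:**
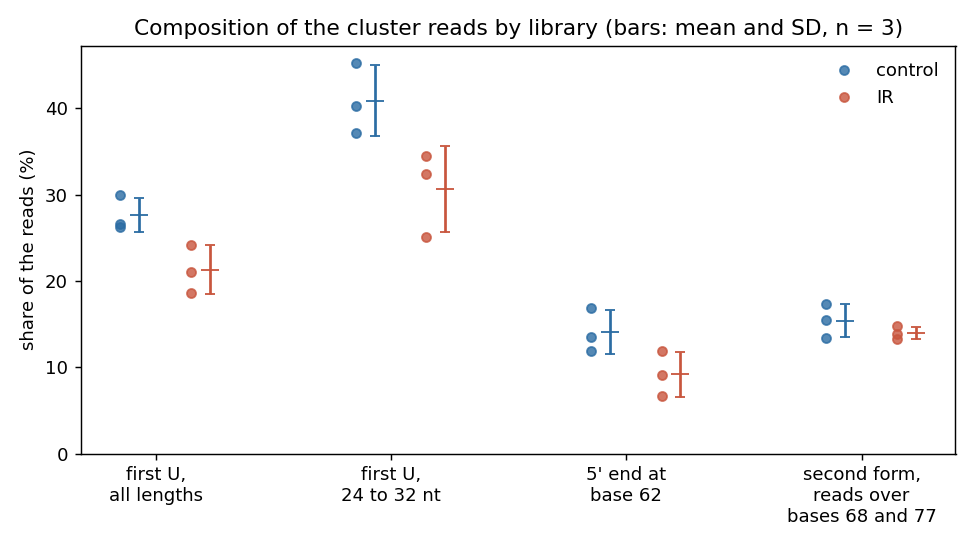
Share of cluster reads (y axis, %) beginning with U at all lengths and at 24 to 32 nt, beginning at base 62, and carrying the second form, for each library (points) with mean and SD of 3 libraries per group. For first U the IR libraries lie under all control libraries, at 18.6% to 24.2% against 26.3% to 29.98%; at base 62 and for the second form the groups overlap.

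Outside the window lay 150 reads (0.910%) of 134 sequences. In sense there were 94, of which 77 lay elsewhere in the 3' UTR, 28 of them identical to the mRNA, and 37 of the 94 matched an annotated Tmem245 transcript. By library they numbered 9, 9 and 20 in control and 14, 24 and 18 in IR libraries. Antisense reads numbered 56, of which 3 overlapped the window, and their counts were 9, 6 and 11 in control and 11, 11 and 8 in IR libraries. Only 3 of the 56 were exactly complementary to the mRNA. By annotation, 26 antisense reads matched another annotated transcript, 4 matched a small RNA and 26 matched none. The most used antisense 5' end, transcript position 12814, had 12 reads of 5 sequences. The share outside the window was 0.770% ± 0.180 in control and 1.05% ± 0.238 in IR libraries, and the groups overlapped (exact permutation p = 0.2).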

How the data were processed

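The deposited values are read counts: per the file layout, each line gives a sequence, its copies in the library, its strand, its number of mapped places and 1 place on a piRNA cluster transcript. RNA between 18 and 50 nt entered the NEBNext kit, per the labels' protocols. Per the submitters' processing notes the build was mm10. The sources used here do not name the aligner, the trimming or the mismatches allowed. The files hold only reads on cluster transcripts, so their totals are not library depth.

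The members, features and tests were chosen with earlier results of these data known. Counts per piRNA gene, per class of read, per sequence and per 5' end were fitted on all features with edgeR 4.0.16 (R 4.3.3): TMM, filterByExpr, the quasi-likelihood test and adjustment by Benjamini-Hochberg, checked on simulated counts. DESeq2 1.42.0 was an alternative. SE is the log2 fold change over the square root of F. Shares were compared by exact permutation (Python 3.11.15, scipy 1.17.1). The design had foreseen a 4.5SH sequence from the reference. The consensus of this cluster's own sense reads in all 6 libraries, over the bases with at least 80 reads, replaced it. Reads were compared with GENCODE vM21 transcripts. Named were the 12 sequences and 8 ends with the most reads, the 6 leading sequences without a consensus match and any past the threshold; values are given for those the results turn on. Libraries of a group differed by more than sampling noise in these reads (largest chi-square p = 0.0277), so none was taken for a repeat deposit.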

Additional observations from a re-analysis of the deposited data

How the results depend on the processing

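The number of libraries and the thin counts at some ends limit these results: shares of 3 against 3 libraries cannot pass 0.05, and intervals and floors cover counting error only. The cause of the changes given here was not tested. The cluster's log2 fold change turned to 0.051 for reads of 24 to 32 nt and 0.0066 with each distinct sequence counted once, and that of consensus reads to 0.18 and 0.012. Leaving out 1 library moved the cluster between -0.17 and -0.11, consensus reads between -0.24 and -0.024 and the remaining reads between -0.29 and -0.16. Called sequences rose from 0 to 1 higher without a filter on low counts and to 3 higher and 1 lower of 46 tested with sequences of the same first 20 nt summed, where 18.3% of all 104 were called. Leaving out 1 library gave 0 to 2 higher and 0 to 1 lower. Called 5' ends numbered 1 to 3 higher when 1 library was left out (1 without control replicate 1 and 1 without IR replicate 1) and 1 lower.

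Of single features, the 39 nt sequence turned to 0.029 without IR replicate 3 (range -0.71 to 0.029 leaving out 1 library) and 0.14 with first 20 nt summed, the 20 nt sequence to 0.14 when so summed. The second form's leading sequence turned to -0.17 with file totals, -0.040 without the filter and, without 1 library, to -0.093, -0.049 and -0.048. The end at base 23 turned to -0.075 with file totals, -0.028 with the replicate block and, without 1 library, to -0.25, -0.020 and -0.013 (highest 0.23). Without IR replicate 3 the end at base 48 turned to -0.34 and that at base 50 to -0.0086, the lowest values leaving out 1 library, the highest being 0.51 and 0.31. Of 167 values under alternatives for 14 further named sequences, 35 changed sign and 0 passed the threshold.

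Of the shares, leaving out 1 library moved the difference in 24 to 32 nt between -2.32 and 0.29 percentage points (0.15 without IR replicate 3), in A at position 10 between -1.85 and 0.47, in 24 to 32 nt of consensus reads between -1.40 and 1.77 and in reads identical to the mRNA between -0.0068 and 0.10. The share of 3' ends at base 61 turned to 0.13 with distinct sequences. Leaving out 1 library kept the first-U difference between -7.81 and -4.99 points. 

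Deviations of same-numbered libraries from their group means correlated across 99 piRNA genes at -0.123, 0.116 and 0.116, so the numbers were not taken as pairs. With the replicate number as a block, the cluster stood at -0.11, 3 ends were higher and 1 lower, 0 sequences were called and the call at base 54 was lost (edgeR adjusted p = 0.0649). Shares paired by number cannot go below an exact permutation p of 0.25. The fit on reads of 1 mapped place was not run, as the cluster had 3 such reads. Measures of the second form, the ends at bases 61 and 62, reads identical to the mRNA and reads outside the window were added after seeing the data.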
